A study of Mus musculus with 6 samples.

Results

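The genes described here encode the enzymes that write and erase DNA methylation and the core of Polycomb repressive complex 2 (PRC2). They were chosen by symbol: Dnmt1, Dnmt3a, Dnmt3b, Tet1, Tet2, Tet3, Uhrf1, Ezh2, Suz12 and Eed. All 10 were among the 15898 genes of the deposited count table, and 9 passed the filter on low counts that left 15477 genes for testing; Tet1 did not. The cells, labelled as terminally exhausted CD8+ T cells, were of the PMEL line, B6.Cg-Thy1a/Cy mice with the transgene Tg(TcraTcrb)8Rest, whose transgenic receptor recognises the melanocyte antigen gp100. Recipient C57BL/6 mice, all irradiated with 4 Gy, received naive Thy1.1+ PMEL cells and then B16F10 melanoma, and on day 10 activated Thy1.2+ PMEL cells, so both groups carried both transfers. One group was injected beside the tumour with phosphate-buffered saline (PBS, 2 libraries) and the other with 20 µg of IL-10/Fc, an interleukin-10 fusion protein (4 libraries), in 4 injections. On day 18, Thy1.1+ cells with surface PD-1 and TIM-3 were sorted and amplified by Smart-Seq2 from 500 cells for each library. No label ties a library to a mouse or gives an age, so p-values reflect only how these libraries vary, which may be technical.

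Libraries held 26738871 to 36941814 counts. All 10 CD8 T cell and exhaustion markers were detected in every library, but not at like levels. Cd8a stood at 910 and 2292 CPM (counts scaled to a common library total) in PBS and at 2896 to 3161 CPM in IL-10/Fc. Pdcd1 (PD-1) stood at 1578 and 1286 against 699.5 to 1112 CPM. The exhaustion factor Tox differed widely between the controls, at 33.1 and 480.5 CPM, and stood at 20.1, 181, 132 and 75.6 CPM in IL-10/Fc replicates 1 to 4. Of the 10, 6 were higher and 1 lower at an unadjusted edgeR p under 0.05, and 0 passed after adjustment. The 15 genes listed as macrophage and monocyte markers, not all of them exclusive to such cells, summed to 225 and 478 CPM in PBS and to 247, 570, 1106 and 1088 CPM in IL-10/Fc replicates 1 to 4. The most abundant were Fcer1g, up to 375 CPM in IL-10/Fc replicate 3, Lyz2, up to 301 CPM in PBS replicate 2, and C1qb, up to 129 CPM in IL-10/Fc replicate 4. Lyz2 stood at 40.3 CPM in PBS replicate 1 and at 32.1 to 184.6 CPM in IL-10/Fc. It was the 1 macrophage marker with a negative log2 fold change (-0.35). Csf1r reached 18.8 CPM, Itgam 3.85 CPM, and Mrc1 was at 0 in both PBS libraries. These markers did not all move together. In IL-10/Fc replicate 1, Fcer1g was at 84.7 CPM against 34.4 and 40.7 CPM in PBS, and C1qb at 12.3 against 21.2 and 13.8 CPM. Their sum therefore does not measure RNA of such cells alone. The 7 dendritic cell and MHC class II markers in the table summed to 167 and 287 CPM in PBS and to 168, 642, 1894 and 994 CPM in IL-10/Fc. The fitted log2 fold change was positive for 14 of the 15 macrophage and 6 of the 7 dendritic markers. The authors' deposited table called 5 of these macrophage and 1 of these dendritic markers higher, and 0 lower. Of the natural killer markers tested 4 were positive and 1 negative, and of the B cell markers 1 and 1. The B cell gene Ighm stood at 42.5 and 42.1 CPM in PBS and at 1.85 to 12.4 CPM in IL-10/Fc. The B cell gene Cd79b lay the other way, at 0 and 0.719 CPM in PBS and at 1.74 to 6.56 CPM in IL-10/Fc. Pecam1, the 1 tested gene of the fibroblast and endothelial list, stood at 20.4 and 16.6 CPM in PBS and at 5.93 to 9.70 CPM in IL-10/Fc. This 1 gene does not measure RNA of such cells. The part of RNA from other cells, and of the differing T cell markers, in the results below was not tested. Counts are given as CPM scaled by TMM, which corrects for a few abundant genes taking a larger share of one library. Without that correction the median log2 fold change over all genes shifts by -0.17, and placements that differ under library-size scaling are given for the 10 genes and for the overlap calls of the other genes named. In RNA from whole sorted samples, fewer cells that carry a transcript and less transcript per cell cannot be told apart.

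Cytosine methylation at CG pairs is kept through cell division by DNMT1, which UHRF1 brings to newly copied DNA, and is laid down afresh by DNMT3A and DNMT3B. TET1, TET2 and TET3 oxidise the methyl group as a first step of its removal. PRC2 methylates histone H3 to hold genes silent; EZH2 is its catalytic subunit, and SUZ12 and EED are needed for its activity. In T cells, DNMT3A and EZH2 are known for silencing genes of the naive and memory state as cells become effectors, and de novo methylation is known to stabilise exhaustion.

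None of the 10 genes changed past the threshold. In IL-10/Fc libraries, 2 PRC2 subunits had the highest estimates in relation to their error: Eed had a mean of 62.7 ± 8.75 CPM (SD, n = 4) where PBS had 46.2 ± 7.65 CPM (SD, n = 2), and Suz12 at 22.8 ± 6.15 against 14.5 ± 2.52 CPM. The catalytic partner Ezh2 stood at 36.9 ± 6.93 against 40.4 ± 9.18 CPM. Dnmt1, Uhrf1 and Dnmt3a overlapped between groups with means lower in IL-10/Fc, and Tet1 was found in more than 3 counts in 1 library of 6. The quasi-likelihood test of edgeR, adjusted by Benjamini-Hochberg over all genes, called 0 of the 9 tested members, and 0 had an unadjusted p under 0.05. Over all genes 1 was called, 0.00646% of those tested, and 12.7% had an unadjusted p under 0.05 (7.2% higher and 5.52% lower). DESeq2 called 0 of the members beside 4.73% of all genes (3.22% higher and 1.51% lower). Its unadjusted p was under 0.05 for Eed and Tet1, beside 1503 genes higher and 1017 lower among the 15589 it tested. limma-voom called 0 of the members beside 1 of all 15477 genes. Its unadjusted p was under 0.05 for Eed, beside 974 genes higher and 1119 lower among all those tested. The authors' deposited table called 0 of the 10 beside 5.3% of all genes (3.57% higher and 1.72% lower). The groups did not overlap in 1 of the 9, Eed, beside 23.6% of all genes.

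**Figure D1:**
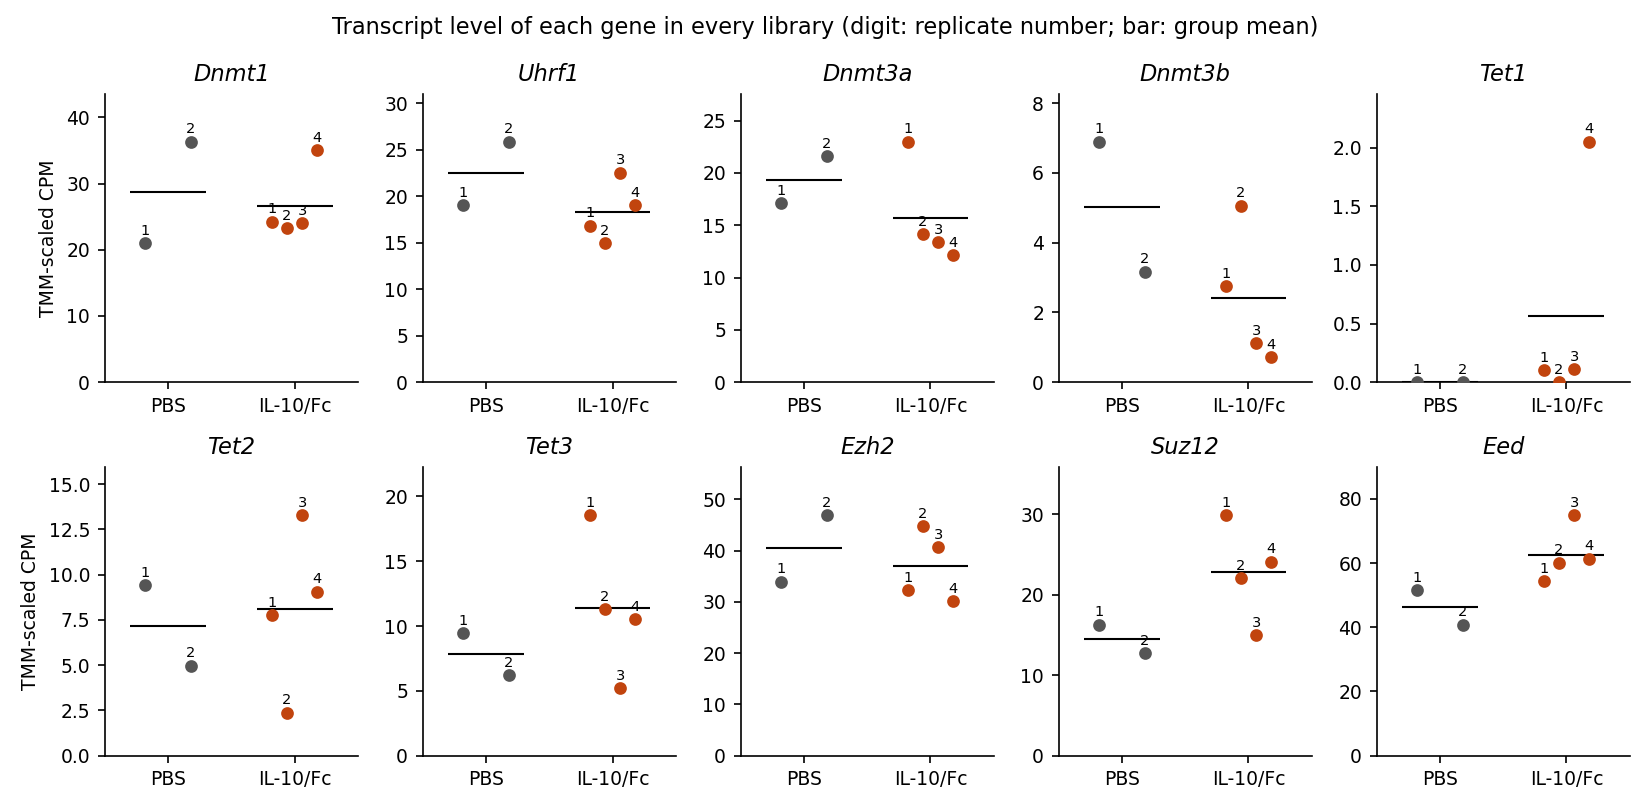
Each panel plots the TMM-scaled CPM of 1 gene (vertical axis, from 0) in the 2 PBS and 4 IL-10/Fc libraries, as points numbered by replicate, with a bar at the group mean. Eed is the one gene whose 4 IL-10/Fc points (54.3 to 75.0 CPM) all lie above both PBS points, and Tet1 has 1 point, at 2.05 CPM, away from the floor.

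Dnmt1 (chromosome 9, 20907209 to 20959888, minus strand, GRCm38), the maintenance methyltransferase, was counted at 20.99 and 36.3 CPM in PBS replicates 1 and 2 and at 24.3, 23.3, 24.0 and 35.1 CPM in IL-10/Fc replicates 1 to 4. The PBS libraries spanned the full range, and 3 IL-10/Fc libraries sat close together with replicate 4 above them. Scaled by library size alone, IL-10/Fc replicate 2 (22.3 CPM) lay below PBS replicate 1 (23.1 CPM). Its log2 fold change was -0.11 (SE 0.29, 95% interval -0.81 to 0.60, edgeR adjusted p = 0.937). The value turned to 0.34 without PBS replicate 2 and was -0.45 without PBS replicate 1, so its sign rested on which of the 2 controls was used.

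Uhrf1 (chromosome 17, 56303321 to 56323486, plus strand), which reads hemimethylated DNA behind the replication fork, stood at 19.06 and 25.9 CPM in PBS and at 16.8, 14.9, 22.6 and 19.0 CPM in IL-10/Fc. Replicates 1 and 2 of IL-10/Fc lay below both controls, replicate 3 lay between them and replicate 4 level with the lower one. In plain CPM, that is without TMM, replicate 4 (18.1 CPM) lay below both controls too, the lower of which was at 20.98 CPM. The log2 fold change was -0.29 (SE 0.24, 95% interval -0.88 to 0.29, edgeR adjusted p = 0.692). It was -0.06 without PBS replicate 2.

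Dnmt3a (chromosome 12, 3806007 to 3914443, plus strand), the de novo enzyme tied to T cell exhaustion, stood at 17.1 and 21.6 CPM in PBS and at 23.0, 14.2, 13.4 and 12.1 CPM in IL-10/Fc. IL-10/Fc replicate 1 held the highest value of all 6 libraries, and the other 3 the lowest. Scaled by library size alone, PBS replicate 2 (22.97 CPM) was the highest and IL-10/Fc replicate 1 (21.97 CPM) the next. With all libraries the log2 fold change was -0.30 (SE 0.31, 95% interval -1.06 to 0.45, edgeR adjusted p = 0.762). Without IL-10/Fc replicate 1 it was -0.55, and without PBS replicate 2 it was -0.13. Dnmt3b (chromosome 2, 153649450 to 153687730, plus strand), the second de novo enzyme, was scarce, at 6.90 and 3.17 CPM in PBS and 2.75, 5.06, 1.12 and 0.713 CPM in IL-10/Fc. Replicate 2 of IL-10/Fc lay between the controls and the other 3 below both. Its log2 fold change of -1.06 had an SE of 0.82 and an interval from -3.05 to 0.92 (edgeR adjusted p = 0.668). It was -0.40 without PBS replicate 1 and -1.72 without IL-10/Fc replicate 2.

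Among the TET dioxygenases, Tet1 (chromosome 10, 62804570 to 62899118, minus strand) had 0 counts in both PBS libraries and 3, 0, 3 and 72 counts in IL-10/Fc replicates 1 to 4. A count of 0 allows up to 3 counts, or 0.112 and 0.104 CPM before TMM in the PBS libraries. Tet1 was thus at or under that limit in 5 libraries and at 2.05 CPM in IL-10/Fc replicate 4, and no group fold is given. Without that library the IL-10/Fc mean was 0.0695 CPM, and with it 0.565 CPM. Tet2 (chromosome 3, 133463679 to 133545139, minus strand), which restrains CD8+ T cell differentiation in known models, stood at 9.41 and 4.97 CPM in PBS and 7.77, 2.37, 13.3 and 9.06 CPM in IL-10/Fc. The lowest and the highest value were both from IL-10/Fc, and the log2 fold change was 0.18 (SE 0.66, 95% interval -1.41 to 1.77, edgeR adjusted p = 0.954). Scaled by library size alone it was 0.0043, and it turned to -0.21 without PBS replicate 2 and to -0.16 without IL-10/Fc replicate 3. Tet3 (chromosome 6, 83362373 to 83459084, minus strand) stood at 9.48 and 6.21 CPM in PBS and 18.6, 11.3, 5.19 and 10.5 CPM in IL-10/Fc. For Tet3, 3 IL-10/Fc libraries lay above both controls and replicate 3 below them, and its log2 fold change was 0.54 (SE 0.51, 95% interval -0.70 to 1.78, edgeR adjusted p = 0.742). It was 0.20 without IL-10/Fc replicate 1. In plain CPM replicate 4 (10.02 CPM) lay under PBS replicate 1 (10.4 CPM), which left 2 libraries above both controls.

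Ezh2 (chromosome 6, 47530139 to 47595341, minus strand), the histone methyltransferase, stood at 33.9 and 46.9 CPM in PBS and at 32.3, 44.8, 40.6 and 30.1 CPM in IL-10/Fc. All 4 IL-10/Fc libraries lay at or below the higher control, 2 of them below both. Its log2 fold change was -0.13 (SE 0.23, 95% interval -0.69 to 0.43, edgeR adjusted p = 0.886), and 0.12 without PBS replicate 2. Suz12 (chromosome 11, 79993106 to 80034123, plus strand), a scaffold of the complex, stood at 16.3 and 12.7 CPM in PBS and at 29.9, 22.1, 15.02 and 24.1 CPM in IL-10/Fc. Replicate 3 of IL-10/Fc lay between the controls and the other 3 above them. The log2 fold change was 0.65 (SE 0.31, 95% interval -0.10 to 1.40, edgeR adjusted p = 0.454). It stayed between 0.47 and 0.84 in every alternative run.

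Eed (chromosome 7, 89954654 to 89980983, minus strand), which binds the mark that PRC2 makes, stood at 51.6 and 40.8 CPM in PBS and at 54.3, 60.1, 75.0 and 61.3 CPM in IL-10/Fc. The groups did not overlap, which held for 12.1% of all tested genes in this direction. The gap between the closest libraries was small, and with scaling by library size only, PBS replicate 1 (56.8 CPM) lay above IL-10/Fc replicate 1 (51.9 CPM). The log2 fold change was 0.44 (SE 0.18, 95% interval -0.00067 to 0.88, edgeR adjusted p = 0.393, 0.0503 before adjustment). Scaled by library size alone it was 0.27. Without PBS replicate 2 it was 0.28, and without PBS replicate 1 it was 0.62. In the authors' deposited table its log2 fold change was 0.44 with a p-value of 0.0324 and an adjusted p-value of 0.234. Smart-Seq2 does not mark strand, and 6.82% of the annotated exon bases of Eed, 3.60% of those of Suz12 and 2.61% of those of Ezh2 are shared with a noncoding gene on the opposite strand, so reads of these partners cannot be told apart there.

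**Figure D2:**
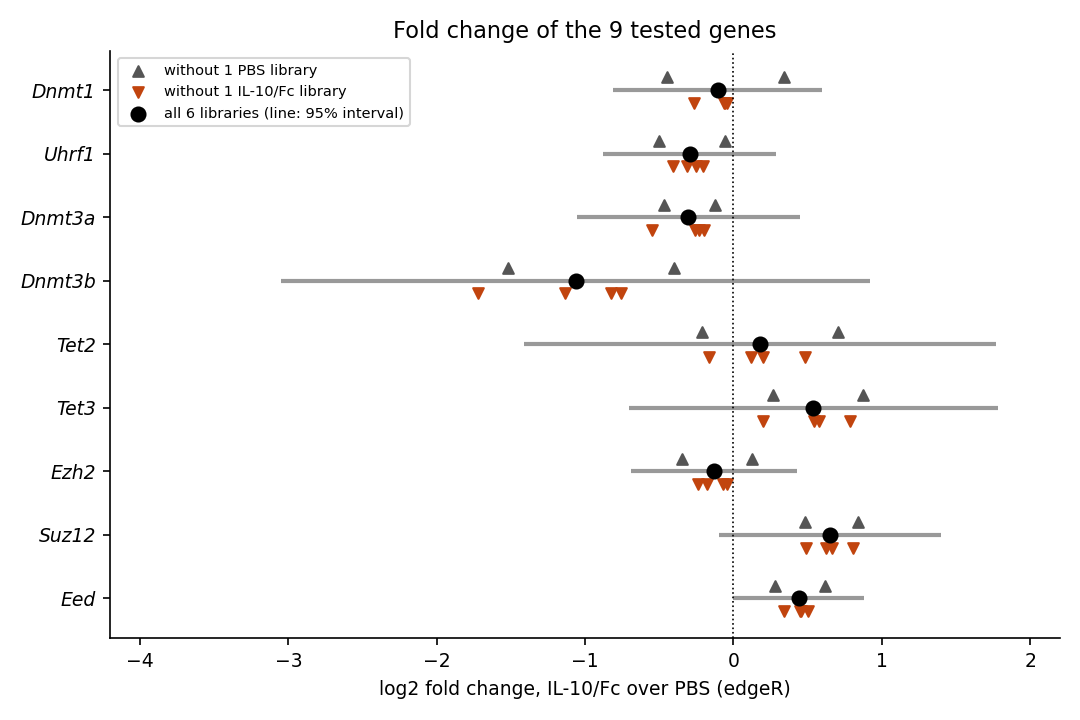
The log2 fold change of IL-10/Fc over PBS (horizontal axis) is drawn for the 9 tested genes with its 95% interval, and triangles give the estimate after leaving out 1 library. Every interval crosses 0, and leaving out a PBS library moved Dnmt1 between -0.45 and 0.34.

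Levels of different genes were compared per kilobase of annotated exon, as TMM-scaled CPM divided by the joint length of all annotated exons. On this scale Eed was the most abundant of the 10 in each library, at 10.7 to 19.6 CPM per kilobase. Over all 6 libraries the mean levels then ran Ezh2 at 5.71, Uhrf1 at 4.63, Suz12 at 4.05 and Dnmt1 at 3.70, whose ranges overlapped, followed by Dnmt3a at 1.02, Dnmt3b at 0.643, Tet3 at 0.612, Tet2 at 0.463 and Tet1 at 0.0244 CPM per kilobase. Each of Ezh2, Uhrf1, Suz12 and Dnmt1 lay above Dnmt3a in every library, while Dnmt3b, Tet2 and Tet3 overlapped one another. The order of Dnmt3a and Dnmt3b did not hold in each library. Dnmt3b lay above Dnmt3a in PBS replicate 1 (1.35 against 1.03) and in IL-10/Fc replicate 2 (0.991 against 0.851). The scale counts exons that these cells may not use, so a long gene with unused exons reads too low: the exon length was 16642 bases for Dnmt3a and 3828 for Eed.

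**Figure D3:**
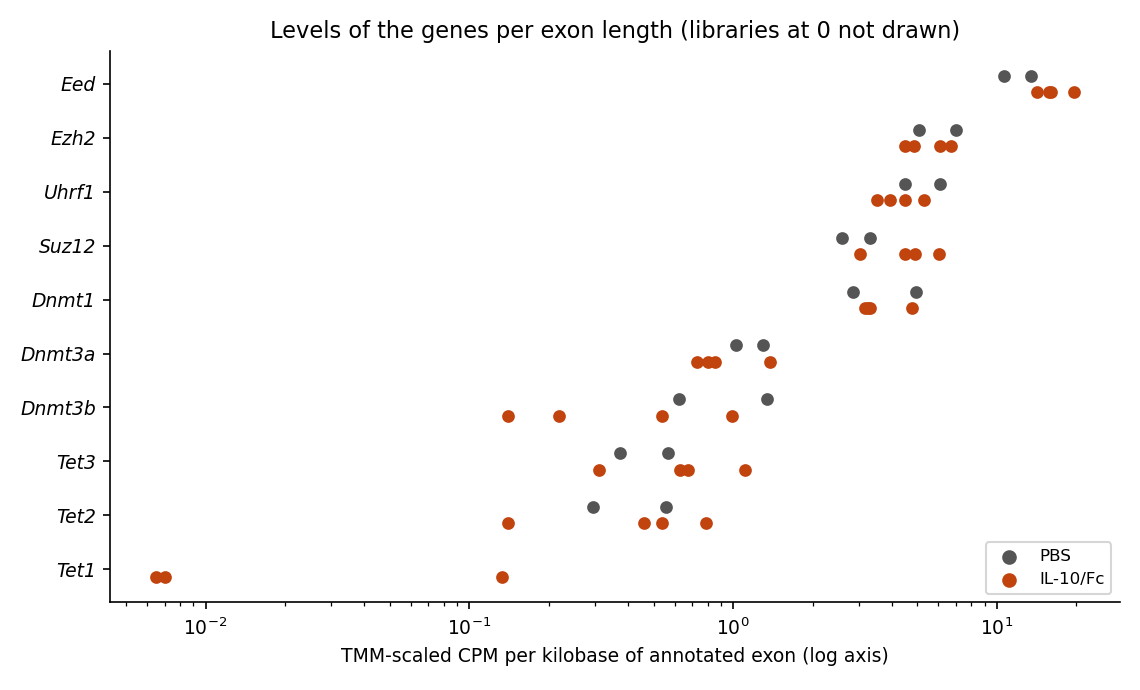
Each row shows 1 gene and each point 1 library, as TMM-scaled CPM per kilobase of annotated exon on a log axis (libraries at 0 are not drawn), PBS above and IL-10/Fc below. Eed lies farthest right, at 10.7 to 19.6, and the TET genes and Dnmt3b lie to the left of Dnmt1, Uhrf1, Ezh2 and Suz12.

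Within the core complex the subunits stood in different proportion in single libraries, and 4 such ratios were examined after the values were seen. The log2 ratio of Suz12 to Ezh2 CPM was -1.03 and -1.84 in the PBS libraries, and -0.11, -1.004, -1.41 and -0.31 after IL-10/Fc. The mean difference was 0.73, with an exact two-sided permutation p of 0.2 (adjusted over the 4 ratios, 0.4). For Eed to Ezh2 the log2 ratio was 0.60 and -0.20 in the PBS libraries, and 0.74, 0.42, 0.88 and 1.02 after IL-10/Fc, a difference of 0.56 (exact permutation p = 0.133, adjusted 0.4). Ezh1, the second catalytic subunit, used by non-dividing cells, had a log2 ratio to Ezh2 of -0.75 and -1.70 in the PBS libraries, and -0.30, -0.23, -1.26 and -1.07 after IL-10/Fc (exact permutation p = 0.4, adjusted 0.533). The ratio of Dnmt3a to Dnmt1 differed by -0.26 (exact permutation p = 0.667, adjusted 0.667). All 4 ratios overlapped between groups, and with 2 against 4 libraries the smallest p that this test can give is 0.0667.

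Uhrf1, Dnmt1 and Ezh2 are known to be transcribed in dividing cells under E2F factors, and their levels were set beside the cell cycle lists. The mean log2 CPM of 21 E2F target and S phase genes was 5.18 and 5.43 in the PBS libraries, and 4.8, 4.90, 5.36 and 5.10 after IL-10/Fc, in order of replicate. Its highest 2 libraries, PBS replicate 2 and IL-10/Fc replicate 3, were also the highest 2 for Uhrf1, and its lowest 2, IL-10/Fc replicates 1 and 2, were the lowest 2 for Uhrf1. Dnmt1 and Ezh2 shared the highest library, PBS replicate 2, but not this order. The mean of 17 G2 and M phase genes was 5.39 and 5.10 in the PBS libraries, and 4.43, 4.48, 5.50 and 5.00 after IL-10/Fc. Of the S phase genes 18 of 21 had a negative and 3 a positive log2 fold change, with a median of -0.37, and of the G2 and M genes 12 and 5, with a median of -0.28, beside a median of -0.01 over all genes. By edgeR, 0 of these 38 passed after adjustment. The helicase subunit Mcm5 had means of 77.0 ± 9.25 CPM for PBS (SD, n = 2) and 46.7 ± 4.76 CPM for IL-10/Fc (SD, n = 4), the helicase subunit Mcm7 at 116 ± 14.4 and 72.7 ± 15.9 CPM, and the chromatin assembly factor Chaf1b at 39.8 ± 2.44 and 25.5 ± 5.44 CPM. Of the mitotic genes, the kinase Aurkb stood at 67.5 and 64.9 CPM in PBS and at 18.1, 36.5, 42.0 and 35.3 CPM in IL-10/Fc, all below both controls (edgeR adjusted p = 0.297), while the checkpoint kinase Bub1b and the spindle factor Tpx2 overlapped between groups, with log2 fold changes of -1.12 and -0.57. In plain CPM, scaled by library size, Bub1b lay lower without overlap. Mcm5 alone of these 38 was called, as lower, in the authors' deposited table. The part of cell division in the levels of Uhrf1, Dnmt1 and Ezh2 was not tested.

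**Figure D4:**
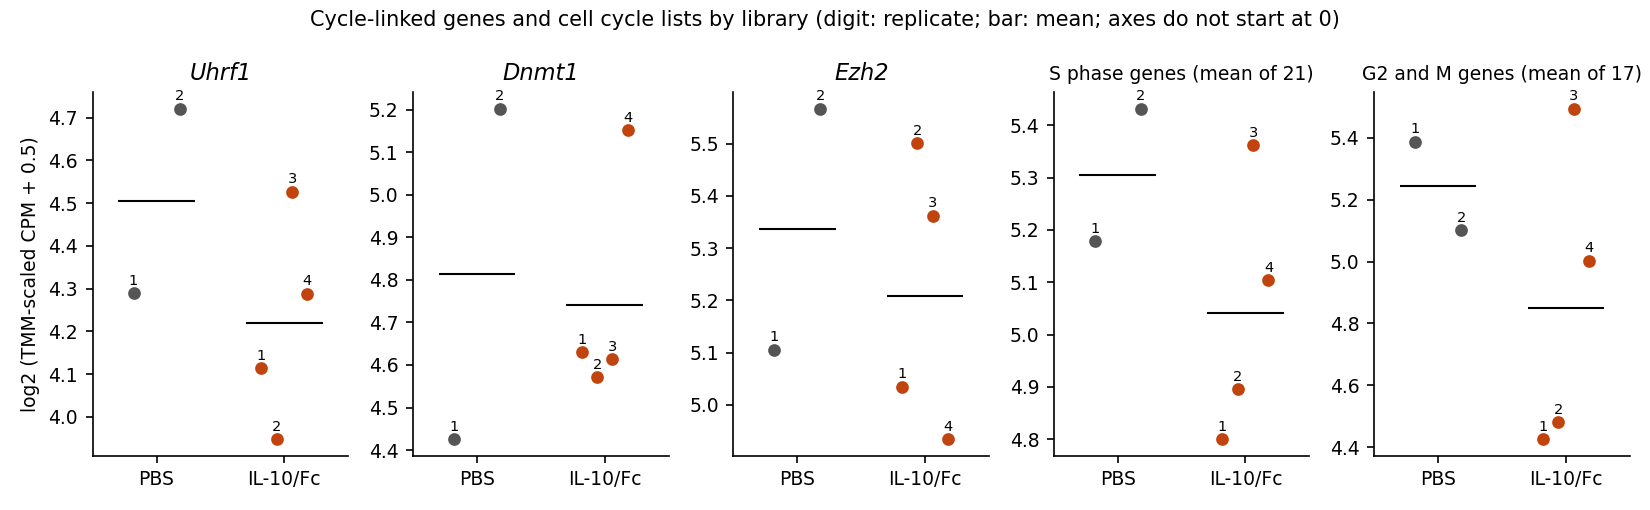
The 3 left panels give log2 of TMM-scaled CPM plus 0.5 for Uhrf1, Dnmt1 and Ezh2, and the 2 right panels the mean of the same quantity over the S phase and the G2 and M lists, with points numbered by replicate, bars at group means and axes that do not start at 0. PBS replicate 2 and IL-10/Fc replicate 3 are the highest 2 libraries both for Uhrf1 and for the S phase mean (5.43 and 5.36).

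The promoters of these cycle-linked genes, and of Suz12, are shown because they hold letters like those that E2F factors recognise. RefSeq windows (GRCm38.p6) from 250 bases before to 50 after each annotated start were searched on both strands for TTTCCCGC, TTTGGCGC and TTTCGCGC, which do not overlap one another in these windows; at least 1 of them occurs in 1.85% of all 32851 windows of that length. All 10 genes had a window, and Dnmt1, Uhrf1 and Dnmt3a had more than 1. A match was found in 1 of 3 windows of Dnmt1, 1 of 2 of Uhrf1, and in the windows of Ezh2 and Suz12; none was found in those of the other 6 genes. The gene counts do not say which start was used. The 4 windows follow, 5′ to 3′ on the gene's strand, with the matches in capitals.
Dnmt1, chr9:20952574-20952873, minus strand: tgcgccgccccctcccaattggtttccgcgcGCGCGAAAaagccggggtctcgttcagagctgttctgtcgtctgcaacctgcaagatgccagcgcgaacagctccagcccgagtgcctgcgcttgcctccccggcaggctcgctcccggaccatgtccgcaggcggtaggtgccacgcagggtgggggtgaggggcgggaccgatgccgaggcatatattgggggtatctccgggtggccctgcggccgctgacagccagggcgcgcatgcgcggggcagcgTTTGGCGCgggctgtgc
Uhrf1, chr17:56304063-56304362, plus strand: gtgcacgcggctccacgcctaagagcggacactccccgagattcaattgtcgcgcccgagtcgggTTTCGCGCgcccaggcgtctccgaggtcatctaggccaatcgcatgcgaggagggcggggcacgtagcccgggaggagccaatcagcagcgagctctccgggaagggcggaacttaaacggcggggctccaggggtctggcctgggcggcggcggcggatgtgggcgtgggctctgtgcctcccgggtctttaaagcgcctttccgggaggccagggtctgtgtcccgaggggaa
Ezh2, chr6:47594981-47595280, minus strand: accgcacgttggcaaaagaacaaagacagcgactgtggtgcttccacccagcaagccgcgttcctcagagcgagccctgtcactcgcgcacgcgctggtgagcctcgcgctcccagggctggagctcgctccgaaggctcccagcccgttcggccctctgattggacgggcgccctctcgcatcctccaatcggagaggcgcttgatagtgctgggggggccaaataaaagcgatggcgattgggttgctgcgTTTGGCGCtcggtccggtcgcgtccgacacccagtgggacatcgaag
Suz12, chr11:79992856-79993155, plus strand: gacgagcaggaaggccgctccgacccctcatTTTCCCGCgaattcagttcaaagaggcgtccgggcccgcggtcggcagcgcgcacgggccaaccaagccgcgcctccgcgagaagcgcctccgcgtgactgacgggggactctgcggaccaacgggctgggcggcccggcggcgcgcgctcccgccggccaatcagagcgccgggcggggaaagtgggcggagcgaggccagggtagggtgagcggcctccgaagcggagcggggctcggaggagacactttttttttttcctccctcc
Dnmt1 held TTTCGCGC on the opposite strand and TTTGGCGC, Uhrf1 TTTCGCGC, Ezh2 TTTGGCGC 4 bases past the start, and Suz12 TTTCCCGC. These 4 windows were also rich in CG pairs, the substrate of the enzymes themselves, with 33 in Dnmt1, 33 in Uhrf1, 31 in Ezh2 and 41 in Suz12, against a median of 7 over all windows. Some windows without a match held more, with 57 in Tet2, where 99.85% of windows held fewer, and 46 and 47 in 2 of Dnmt3a. Others held as few as 2, in a further window of Dnmt1. Each searched motif holds a CG pair, and the share of 1.85% was not matched for CG pairs or for the number of windows of a gene. Of these 4 genes, Suz12 had a positive log2 fold change and the other 3 a negative one, none past the threshold. A match is a description of the letters and not evidence of a bound factor.

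Other genes of the same pathways were taken from lists chosen by function. Partners of methylation maintenance and methyl donor supply comprised 12 genes, of which 10 were tested, 3 with a positive and 7 with a negative log2 fold change and a median of -0.25; 0 passed edgeR's adjusted test. Mat2a, which makes the methyl donor S-adenosylmethionine, had means of 166 ± 30.6 CPM for PBS (SD, n = 2) and 111 ± 14.1 CPM for IL-10/Fc (SD, n = 4). Its groups did not overlap, which held for 11.5% of all tested genes in this direction. Its log2 fold change was -0.59 (SE 0.16, edgeR adjusted p = 0.265), and the authors' deposited table called it lower (adjusted p-value 0.0484). Usp7, a deubiquitinase that stabilises DNMT1 and UHRF1, stood at 9.10 and 7.12 CPM in PBS and at 22.1, 10.6, 13.8 and 18.9 CPM in IL-10/Fc, without overlap (log2 fold change 1.01, SE 0.36, edgeR adjusted p = 0.343). Lig1, which seals newly copied strands and recruits UHRF1, stood at 79.8 ± 8.18 against 51.8 ± 13.6 CPM (edgeR adjusted p = 0.367).

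Of 10 genes listed as methyl-CpG readers or as relatives of such readers, all tested, 7 had a positive and 3 a negative log2 fold change. The median was 0.45, and 0 passed by edgeR. Mbd3, Mbd5 and Mbd6, all among the positive ones, were listed by family and not by known binding to methylated DNA, so the count does not describe readers alone. Mbd2, which recruits a deacetylase complex to methylated DNA, stood at 62.4 and 51.2 CPM in PBS and at 92.7, 81.5, 76.4 and 87.6 CPM in IL-10/Fc. All 4 IL-10/Fc libraries were above both controls, also with scaling by library size only. The log2 fold change was 0.57 (SE 0.14, edgeR adjusted p = 0.231), and in the authors' deposited table it was called higher with an adjusted p-value of 0.017. Mbd3 (15.3 ± 3.395 CPM for PBS and 19.11 ± 3.89 CPM for IL-10/Fc) and the repair glycosylase Mbd4 (11.1 ± 4.19 and 6.998 ± 3.44 CPM) overlapped between groups.

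Of 12 genes for removal of oxidised bases or for the metabolites that TET enzymes need, 4 had a positive and 8 a negative log2 fold change (median -0.23), and 0 passed by edgeR. Gadd45g, a stress-induced adaptor linked to active demethylation, stood at 19.8 and 9.90 CPM in PBS and at 29.5, 88.6, 86.4 and 72.5 CPM in IL-10/Fc. Its log2 fold change was 2.22 (SE 0.55, edgeR adjusted p = 0.231), and the authors' deposited table called it higher (adjusted p-value 2.1e-04). Idh2, which makes the TET cosubstrate alpha-ketoglutarate in mitochondria, stood at 13.1 and 13.3 CPM in PBS and at 4.39, 6.59, 6.77 and 6.96 CPM in IL-10/Fc. The authors' deposited table called Idh2 lower (adjusted p-value 0.0124), and by edgeR its log2 fold change was -1.09 (SE 0.27, adjusted p = 0.231). Ogt, the glycosyltransferase that binds TET proteins, stood at 45.9 ± 9.03 and 65.8 ± 17.5 CPM and overlapped. The thymine glycosylase Tdg, which excises oxidised cytosine, stood at 22.7 and 26.9 CPM in PBS and at 21.5, 19.11, 24.1 and 14.4 CPM in IL-10/Fc, also with overlap. In plain CPM all 4 lay below both controls.

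Of 11 further PRC2 genes 8 were tested, 5 with a positive and 3 with a negative log2 fold change (median 0.19) and 0 past edgeR's adjusted test. Rbbp7, a histone-binding subunit, stood at 238 and 270 CPM in PBS and at 143, 184, 204 and 207 CPM in IL-10/Fc, all below both controls (log2 fold change -0.46, SE 0.17, edgeR adjusted p = 0.351). The accessory subunit Aebp2 stood at 41.7 and 49.9 CPM in PBS and at 73.6, 53.3, 59.0 and 50.2 CPM in IL-10/Fc. Its groups touched closely, and overlapped with scaling by library size only. Jarid2, which guides PRC2 to chromatin, stood at 15.3 ± 3.12 and 21.5 ± 8.46 CPM.

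Polycomb repressive complex 1 (PRC1) adds ubiquitin to histone H2A. Of its 22 listed genes, all tested, 6 had a positive and 16 a negative log2 fold change, with a median of -0.32, and 0 passed by edgeR. In 6 of the 22 the groups did not overlap with IL-10/Fc lower, beside 11.5% of all tested genes, and in 0 with IL-10/Fc higher, beside 12.1%. Scaled by library size alone, 8 of the 22 lay lower without overlap, Phc3 and Kdm2b being the added genes, beside 19.8% of all tested genes, and the median was -0.49. Rnf2, the main ubiquitin ligase of PRC1, stood at 43.1 and 37.2 CPM in PBS and at 25.6, 20.2, 26.7 and 24.4 CPM in IL-10/Fc. All IL-10/Fc libraries lay below both controls, and the log2 fold change was -0.73 (SE 0.18, edgeR adjusted p = 0.214). The authors' deposited table called Rnf2 lower, with an adjusted p-value of 0.0104. Phc3, a PRC1 scaffold, stood at 101 ± 43.0 and 59.8 ± 14.3 CPM, and Pcgf5, a partner of Rnf2, at 68.1 ± 4.18 and 54.4 ± 6.13 CPM. The log2 fold change of Phc3 was -0.76 with all libraries and -0.24 without PBS replicate 2.

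The list of enzymes that remove Polycomb marks had a median log2 fold change of 0.66 over 6 tested genes of 7 listed. Of these, 5 were positive and 1 negative, and 0 passed by edgeR. The list also holds the cofactors Asxl1 and Asxl2, which had its largest log2 fold changes, so the median does not describe enzymes alone. Asxl2, a cofactor of the BAP1 deubiquitinase that reverses the PRC1 mark, stood at 12.6 and 16.5 CPM in PBS and at 25.3, 24.6, 24.0 and 23.5 CPM in IL-10/Fc. The 4 IL-10/Fc libraries lay within a narrow band above both controls, and the log2 fold change was 0.74 (SE 0.19, edgeR adjusted p = 0.232). The authors' deposited table called it higher (adjusted p-value 0.00944). Its paralog Asxl1 stood at 9.17 and 9.08 CPM in PBS and at 32.0, 23.5, 11.8 and 18.9 CPM in IL-10/Fc (log2 fold change 1.24, SE 0.41, edgeR adjusted p = 0.319), again without overlap. The demethylase Kdm6a, which erases the PRC2 mark, stood at 13.0 and 12.2 CPM in PBS and at 25.1, 21.7, 20.9 and 11.5 CPM in IL-10/Fc, where replicate 4 lay below both controls. The related demethylase Kdm6b was the 1 negative gene of the list (log2 fold change -0.23, edgeR adjusted p = 0.762). It stood at 44.4 and 41.6 CPM in PBS and at 27.5, 33.9, 48.1 and 37.5 CPM in IL-10/Fc, with overlap.

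**Figure D5:**
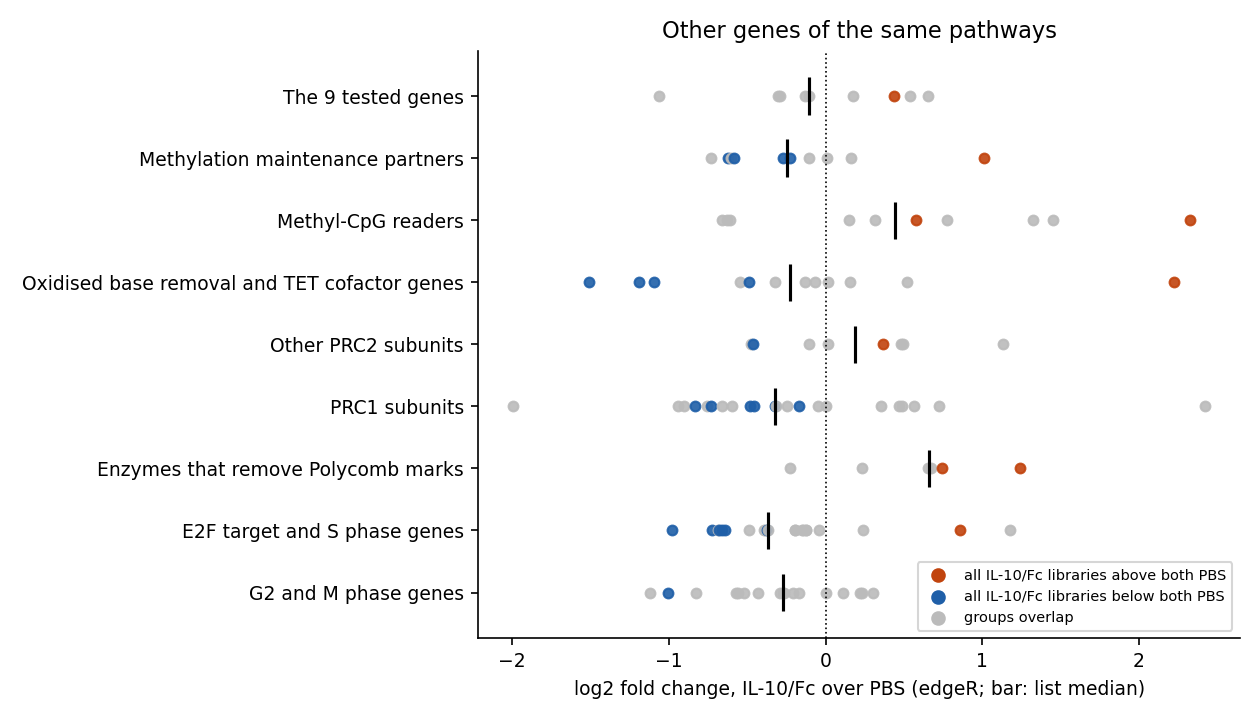
Each point is the edgeR log2 fold change of 1 tested gene (horizontal axis), in rows by list, with a bar at the list median; coloured points are genes whose groups did not overlap. Points of PRC1 lie mostly left of 0 (median -0.32). Those of the list of enzymes that remove Polycomb marks, which includes the cofactors Asxl1 and Asxl2, lie mostly right (median 0.66).

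Genes known to be silenced by DNA methylation or PRC2 in effector CD8+ T cells showed no common direction, with 7 of 12 positive, 5 negative and a median log2 fold change of 0.04. That median was 1.498 without PBS replicate 1 and -0.66 without PBS replicate 2. The memory factor Tcf7 stood at 12.1 and 0.980 CPM in the PBS libraries and at 6.30, 3.03, 0 and 2.34 CPM in IL-10/Fc, and the homing receptor Ccr7 at 4010 and 548 CPM against 232, 108, 120 and 129 CPM. Ccr7 lay below both controls in each IL-10/Fc library (log2 fold change -3.95, SE 0.72, edgeR adjusted p = 0.172), and at -1.90 without PBS replicate 1. The chromatin organiser Satb1 stood at 51.6 and 27.9 CPM in PBS and at 209, 117, 112 and 111 CPM in IL-10/Fc (log2 fold change 1.79, SE 0.40, edgeR adjusted p = 0.2), above both controls in all 4. The authors' deposited table called Ccr7 lower and Satb1 higher. Foxo1, a memory factor, stood at 43.6 ± 20.0 CPM for PBS and 80.3 ± 21.7 CPM for IL-10/Fc. Of 4 cyclin-dependent kinase inhibitors that PRC2 silences, 3 were tested, 1 with a positive and 2 with a negative log2 fold change (median -0.96), and 0 passed by edgeR. The most abundant, Cdkn1a, stood at 120 ± 47.4 and 142 ± 34.3 CPM. Cdkn2b stood at 5.78 and 7.19 CPM in PBS and at 3.48, 1.22, 1.41 and 3.31 CPM in IL-10/Fc, without overlap (log2 fold change -1.46, SE 0.54, edgeR adjusted p = 0.355), and Cdkn2a was under 1 CPM in each library (log2 fold change -0.96, SE 0.94).

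The gene with the smallest p among the 9 that edgeR tested, Eed, was set beside 4640 candidates with a named symbol and a mean of at least 20 CPM, by the mean absolute difference of log2 CPM centred over the 6 libraries. The 5 nearest were Exosc8, a subunit of the RNA exosome (0.06), the interleukin-12 receptor chain Il12rb2 (0.07), the serine carboxypeptidase Scpep1 (0.07), the kinetochore protein Zwint (0.08) and the palmitoyltransferase Zdhhc3 (0.08). Each had its highest value in IL-10/Fc replicate 3, as Eed did, which the choice by likeness over these same libraries favours. With 6 libraries this likeness is a description only.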

How the data were processed

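RNA of 2 PBS and 4 IL-10/Fc libraries was analysed. The authors deposited raw gene counts, one file to a library, and a table of the series with the same counts; counts were read from the library files and matched the series table in all 6. Per the submitters' processing notes, reads were handled with TopHat2 2.1.1, Trimmomatic, DESeq2, Cuffdiff, Cufflinks 2.2.1 and Bowtie2 2.2.9 on GRCm38 (mm10); of the counting tool the sources used here say nothing. The same table, as deposited, gives log2 fold changes and their errors, p-values raw and adjusted, a Wald statistic (a score) and a mean normalized count, a signal. Genes outside it were not analysed here.

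Genes were kept with filterByExpr, scaled by TMM (factors 1.10 and 1.06 in PBS, 0.950 to 0.983 for IL-10/Fc), then fitted by edgeR 4.0.16 (glmQLFit, robust, glmQLFTest, R 4.3.3), group as the sole term, two-sided, with Benjamini-Hochberg adjustment over 15477 genes at 0.05. The biological coefficient of variation was 0.543. SE is the log2 fold change over the root of F. The 3-count floor covers counting error only. Replicate libraries did not agree within sampling noise, so each counted once. Exon lengths are from GENCODE M21 (GRCm38). DESeq2 1.42.0, limma-voom (limma 3.58.1), other scalings and filters, a replicate block and leaving out single libraries were alternatives. The members and lists were chosen with earlier results of these data known. Of each list, up to 3 genes with the smallest p at 5 CPM or more are named. Tdg, Tcf7, Ezh1, Kdm2b, Kdm6b, Cd79b, Cdkn2a, Cdkn2b, Malat1 and Neat1 were named after their values were seen. Germline genes silenced by methylation (14 listed) were not analysed here.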

Additional observations from a re-analysis of the deposited data

Results flagged for a closer look

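In 7 of the 38 genes described, 1 IL-10/Fc library lay apart from the other 3 by more than Dixon's 95% limit; chance flags about 1 in 20 groups. Among the 10 members these were Dnmt1, at 35.1 CPM in replicate 4 against 23.3 to 24.3 CPM in the others, and Tet1, at 2.05 CPM in replicate 4 against 0 to 0.108 CPM. Lig1 stood apart in the same library, at 72.1 CPM against 42.9 to 47.0 CPM. In replicate 1, Satb1 was high at 209 CPM (others 111 to 117 CPM), Ccr7 high at 232 CPM (others 108 to 129 CPM) and Idh2 low at 4.39 CPM (others 6.59 to 6.96 CPM). In replicate 3, Mcm7 was high at 96.4 CPM (others 63.6 to 67.2 CPM).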

How the results depend on the processing

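No member passed in any of the 14 alternatives run, and 6 of the 9 tested kept their direction in all that gave a value. The exceptions were Dnmt1 (from -0.45 to 0.34 without single libraries), Ezh2 (from -0.35 to 0.12) and Tet2 (from -0.21 to 0.71, and -0.66 with the replicate block). At 20 CPM or more in 2 libraries Dnmt3b, Tet2 and Tet3 gave no value. The count of genes called, 1 with all libraries, was 738 by the DESeq2 Wald test, 60 at 20 CPM or more in 2 libraries, 0 with scaling by library size only, 0 without the robust option, 0 with the replicate block and 0 to 16 without single libraries; the cause was not tested. Scaling by library size only moved the split at an unadjusted p under 0.05 from 1115 higher and 855 lower to 652 and 1647, and limma-voom to 974 and 1119. Of the 28 other genes named by rule 27 kept their direction; Cdkn1a turned to -0.0324 with the replicate block and ranged from -0.11 to 0.72 without single libraries. Of these 28, 9 passed in at least 1 alternative. In each of the 9 the DESeq2 Wald test, which called 738 genes, was an alternative that passed. Only Ccr7 passed in a further one. Replicate numbers are shared by 2 pairs only, and deviations of same-numbered libraries correlated at 0.06 and 0.01 across genes, so the numbers were not taken as pairs. Without a PBS library the lone control takes its spread from the IL-10/Fc group.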

Other observations

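Nuclear noncoding RNAs were not among the enzymes described. Malat1 stood at 565 and 880.5 CPM in PBS and at 1455, 1660, 1234 and 1533 CPM in IL-10/Fc (log2 fold change 1.02, SE 0.21, edgeR adjusted p = 0.193), and Neat1 at 9.58 and 19.0 CPM against 40.8, 31.5, 29.4 and 28.1 CPM (log2 fold change 1.18, SE 0.33, edgeR adjusted p = 0.268). Both lay above the 2 controls in all 4 IL-10/Fc libraries, and the authors' deposited table called both higher. These 2 genes were singled out after their values were seen.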
